A study of Mus musculus with 12 samples.

Results

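Spc24 and the 8 genes whose proteins work with it at the outer kinetochore were followed in the developing mouse cortex after deletion of Rnu11, the gene for the U11 small nuclear RNA. The 9 genes, of 54735 gene symbols in the deposited tables, were taken by name: Spc24, Spc25, Ndc80 and Nuf2 of the NDC80 complex, Mis12, Dsn1, Nsl1 and Pmf1 of the MIS12 complex, and Knl1. Spc24 was chosen by its minor introns and its low TPM in both mutants, so its differences between groups are described here without a test, and the other 8 genes were added as its partners.

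The kinetochore is the protein assembly that ties each chromosome to the spindle during cell division. Its microtubule-binding core joins the NDC80 complex, whose Ndc80 and Nuf2 subunits reach the microtubule and whose Spc24 and Spc25 subunits face the chromosome, to the MIS12 complex and to Knl1, which recruits checkpoint proteins. U11 RNA recognises the start of minor introns, a small class of introns removed by a spliceosome of their own, and dividing radial glia of the embryonic cortex depend on intact kinetochores to segregate their chromosomes.

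RNA sequencing was done on the dorsal telencephalon (the pallium, the future cortex) of 12 C57/Bl6 embryos at E13.5, with 4 embryos in each of 3 groups. Control embryos were Rnu11 wt/flx and Trp53 wt/wt, cKO embryos were Rnu11 flx/flx and Trp53 wt/wt, and dKO embryos were Rnu11 flx/flx and Trp53 flx/flx; Trp53 encodes the p53 protein. Every embryo carried Emx1-Cre, a recombinase driven in pallial progenitors and their descendants, so the controls had 1 floxed Rnu11 allele exposed to Cre, and cells outside that lineage kept their alleles in all groups. The title of the series concerns the microcephaly caused by impaired minor intron splicing and how far p53 loss corrects it. Values are TPM, a gene's level corrected for transcript length and scaled to the same sum in every library. TPM keeps no read depth, so no counting error can be attached to a value, and a gene's TPM does not separate spliced from unspliced RNA.

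The targeted genes matched the labels. Rnu11 stood at 674, 521, 724 and 643 TPM in the 4 controls, at 159, 145, 115 and 158 with cKO and at 145, 142, 169 and 199 with dKO, which left 22.6% and 25.6% of the control mean. Trp53 was at 6.37, 2.90, 2.63 and 3.37 TPM in the controls, with cKO at 4.18, 4.04, 3.92 and 4.83 and dKO at 0.92, 1.49, 1.13 and 1.36. Neither gene overlapped between the groups that differ in its genotype (exact two-sided permutation test over 70 assignments, p = 0.0286 in each of 4 comparisons and 0.0286 after Benjamini-Hochberg adjustment, the smallest value that 4 against 4 allows).

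One property of the libraries touches every value below. Genes listed as protein-coding in RefSeq held 14.5% to 17.9% of all TPM in cKO, against 12.7% to 13.7% in control and 12.9% to 13.9% in dKO; the rest was mostly short structural RNA. On the log2(TPM + 1) scale the median gene was 0.25 higher in cKO than in control and 0.26 lower in dKO than in cKO. Between dKO and control the median difference was -0.01. With each library rescaled to an equal protein-coding sum, the median was 0.05 for cKO minus control and -0.06 for dKO minus cKO. Because of these shifts, each change is given as deposited and also after median-shift centring. Centring moves each library so that its median gene matches the mean library. The cKO embryo 4 stood apart, with the highest protein-coding share and a centring shift of 0.32, and results that rest on it are also given without it.

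Spc24 lies on chromosome 9, on the minus strand, at chr9:21755442-21760303 in mm10. Its full-length annotated transcript in GENCODE M21 has 5 exons and 4 introns, all 4 within the coding sequence. Introns 2, 3 and 4 could be read because other annotated Spc24 transcripts retain them. The ends of these introns are shown because the minor splice sites are part of how Spc24 was chosen; the starts and the last 30 bases run 5′ to 3′ on the coding strand, and capitals mark the first 8 bases, the letters CCTTAAC and the last 2 bases.

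Intron 2 start: ATATCCTTtgctatgtccggtggcc
Intron 2 end: tgtctgagccttggCCTTAACccagtgcAC
Intron 3 start: GTAGGTTCtgcaggctgggcctact
Intron 4 start: GTATCCTTtgagaagtcgatgttgg
Intron 4 end: gaaaacactttcctttcatctcgtcctcAG

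Intron 2 (chr9:21757395-21757684, 290 bases) begins with ATATCCTT and ends with AC, the AT-AC form of minor intron, and CCTTAAC, the branch site motif of minor introns, ends 9 bases before its last base. Intron 4 (chr9:21756296-21757116, 821 bases) begins with GTATCCTT, the minor 5′ splice site in its GT form, and ends with AG. Intron 3 (chr9:21757194-21757289, 96 bases) begins with neither of those motifs, and intron 1, of 2289 bases, was not read. Searched on the coding strand only, 184 of the 42736 mouse introns whose starts could be read from annotated transcripts began with ATATCCTT or GTATCCTT, a share of 0.431%, and 0.362% of the 19587 introns with both ends readable held CCTTAAC in their last 40 bases. Of the 73 introns with both ends readable that began with either motif, 14 held CCTTAAC there. Among the other 8 genes, 25 of 106 introns could be read at the start and 0 began with either motif, with none readable in Nsl1. No match says only that those introns do not start with exactly these letters, and the others were not searched.

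**Figure D1:**
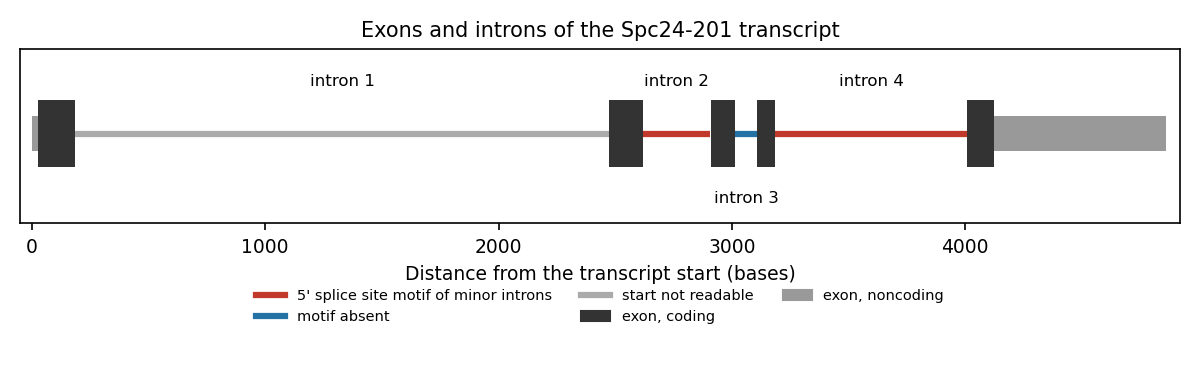
Exons (boxes) and introns (lines) of the full-length Spc24 transcript, drawn to scale against the distance in bases from the transcript start. Introns 2 and 4, in red, begin with a minor 5′ splice site motif, intron 3 does not, and the start of intron 1 was not read.

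Spc24 stood lower in both mutants than in control. It measured 14.0, 12.7, 17.3 and 16.1 TPM in the 4 controls, 6.47, 7.45, 6.35 and 9.71 in cKO, and 6.86, 7.52, 6.65 and 7.12 in dKO. The highest mutant library, cKO embryo 4, lay below the lowest control, and the mutants overlapped each other. From a control mean of 15.0 ± 2.06 TPM, cKO stood at 49.9% (7.50 ± 1.56 TPM) and dKO at 46.9% (7.04 ± 0.376 TPM; SD, n = 4 each). As bulk tissue was measured, fewer cells containing a transcript and less transcript per cell cannot be told apart. The log2 change was -0.92 (SE 0.125) in cKO and -0.99 (SE 0.125) in dKO as deposited, and -1.17 (SE 0.093) and -0.97 (SE 0.093) after centring. These values chose the gene and carry no test. Its place among the 11764 genes tested follows from that choice: 0.825% of them had a lower change in cKO and 0.935% in dKO. Leaving out any 1 library, cKO embryo 4 included, kept the change between -1.24 and -0.86 in cKO and between -1.06 and -0.90 in dKO over both scalings.

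The choice of Spc24 used its level in both mutants, so their comparison is a description too. The dKO minus cKO change was -0.06 (SE 0.125) as deposited and 0.20 (SE 0.093) after centring. The 2 groups overlapped in TPM, and the sign of the difference follows the scaling.

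**Figure D2:**
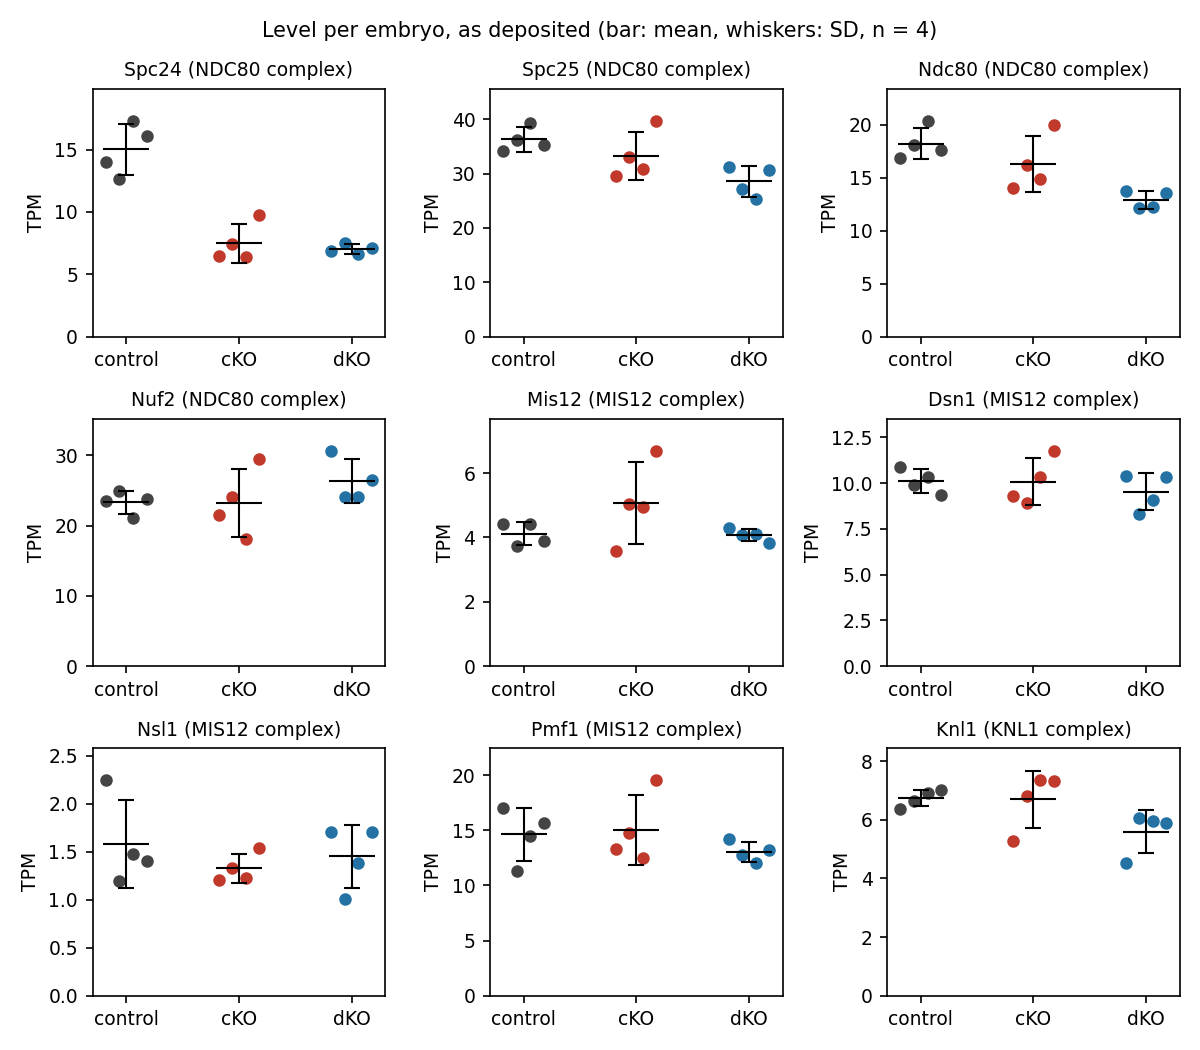
TPM of the 9 kinetochore genes in each embryo as deposited, 1 panel per gene, with points for embryos, a bar for the mean and whiskers for the SD (n = 4 a group; the y axes differ). The Spc24 mutants sit between 6.35 and 9.71 TPM, all below the controls, whereas the other 8 genes overlap between control and cKO.

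Spc25, the direct dimer partner of Spc24, was the most abundant of the 9 genes. It measured 34.2, 36.2, 39.4 and 35.4 TPM in the controls, 29.6, 33.0, 30.9 and 39.6 with cKO, and 31.1, 27.2, 25.3 and 30.8 with dKO. Control and cKO overlapped through cKO embryo 4, and every dKO embryo lay below every control. The gene was not called as deposited, at -0.13 (SE 0.105, limma adjusted p = 0.334) in cKO and -0.34 (SE 0.105, adjusted p = 0.0872) in dKO. After centring it fell in cKO by 0.38 (SE 0.091, adjusted p = 0.0297), while the dKO change of -0.32 (SE 0.091) missed the threshold at adjusted p = 0.0528. Rescaling each library to an equal sum of RefSeq protein-coding TPM put it past the threshold in both mutants, at -0.36 in cKO (adjusted p = 0.0128) and -0.33 in dKO (adjusted p = 0.0177).

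Near the threshold, in cKO after centring and in dKO, the call of Spc25 turned on single libraries. The centred call in cKO was lost without control embryos 2, 3 or 4 or cKO embryos 1, 2 or 3 (log2 change -0.39 to -0.34, adjusted p 0.0607 to 0.0921), and held without cKO embryo 4 (-0.41, adjusted p = 0.0362). In dKO, Spc25 as deposited passed once cKO embryo 4 was left out of the shared fit (-0.34, adjusted p = 0.0413), and after centring once control embryo 1 (-0.36, adjusted p = 0.0408) or dKO embryo 1 (-0.37, adjusted p = 0.0335) was. Between the mutants the Spc25 change was -0.21 (SE 0.105, adjusted p = 0.125) as deposited and 0.06 (SE 0.091, adjusted p = 0.735) after centring, with opposite signs and no call.

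Ndc80, the subunit that carries the main microtubule-binding head, fell in dKO under all 3 scalings. Its TPM was 16.9, 18.1, 20.3 and 17.6 for control, 14.0, 16.2, 14.9 and 19.97 for cKO, and 13.8, 12.2, 12.2 and 13.51 for dKO. All 4 dKO embryos lay below all controls and below all cKO embryos, and control and cKO overlapped. In dKO against control the change was -0.46 (SE 0.106, limma adjusted p = 0.0246) as deposited, -0.44 (SE 0.087, adjusted p = 0.0098) after centring and -0.46 (SE 0.073, adjusted p = 0.0028) after protein-coding rescaling, and dKO stood at 70.9% of the control mean. As deposited, the call ended without control embryos 2, 3 or 4 or dKO embryos 2 or 3 (log2 change -0.48 to -0.41, adjusted p 0.0569 to 0.0812), and with no filter on low genes (adjusted p = 0.0532); after centring it held in all 12 such fits, with a highest adjusted p of 0.0317.

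Whether Ndc80 fell in cKO depended on the scaling. The change was -0.16 (SE 0.106, limma adjusted p = 0.235) as deposited and -0.41 (SE 0.087, adjusted p = 0.0152) after centring, and without cKO embryo 4 these became -0.26 (adjusted p = 0.0537) and -0.46 (adjusted p = 0.0146). The centred call was lost without control embryo 3 (-0.36, adjusted p = 0.0515) or cKO embryo 1 (-0.38, adjusted p = 0.0562). Between the mutants, the deposited Ndc80 change of -0.30 (SE 0.106, adjusted p = 0.0384) became -0.03 (SE 0.087, adjusted p = 0.850) once the library shift was removed. As deposited, that call was also lost without control embryo 4, cKO embryos 2 or 4, or dKO embryos 2, 3 or 4 (-0.32 to -0.21, adjusted p 0.0517 to 0.0965), with no filter (adjusted p = 0.0695) or with the mutants fitted alone (0.069).

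Nuf2, which pairs with Ndc80 along its whole coiled coil, did not fall with it in dKO. It measured 23.5, 24.9, 21.05 and 23.7 TPM in the controls, 21.5, 24.1, 18.0 and 29.5 with cKO, and 30.6, 24.0, 24.1 and 26.5 with dKO. As deposited the 3 groups overlapped. The change was -0.02 (SE 0.133, limma adjusted p = 0.908) in cKO and 0.16 (SE 0.133, adjusted p = 0.551) in dKO, and after centring -0.27 (SE 0.114, adjusted p = 0.193) and 0.18 (SE 0.114, adjusted p = 0.360), so Nuf2 passed against control under neither.

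Nuf2 differed between the mutants only once the library shift was taken out. Its dKO minus cKO change was 0.19 (SE 0.133, adjusted p = 0.271) as deposited, 0.45 (SE 0.114, adjusted p = 0.0384) after centring and 0.42 (SE 0.101, adjusted p = 0.0263) after protein-coding rescaling, and the centred dKO and cKO values did not overlap. The centred call was lost without control embryo 4, cKO embryos 1, 2 or 3, or dKO embryos 1 or 4 (0.37 to 0.47, adjusted p 0.0584 to 0.0986), and held without cKO embryo 4 (0.52, adjusted p = 0.0303).

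The partners called are set here beside the share of all genes called. As deposited, limma called 0 of the 8 genes other than Spc24 in cKO, where it called 35.4% of all 11764 genes tested, 34.3% higher and 1.09% lower. In dKO, 1 of 8, Ndc80, was called lower, against 3.4% of all genes called lower, 1.79% called higher and 5.19% called in either direction. Between the mutants 1 of 8, again Ndc80, was called lower, against 38.8% of all genes called lower and 0.612% higher, or 39.4% in either direction. After centring, 2 of 8 were called lower in cKO (Spc25 and Ndc80; 2.96% of all genes were called lower), 1 of 8 in dKO (Ndc80; 4.69%), and 1 of 8 higher in dKO than in cKO (Nuf2; 2.1%). The comparisons with control share the 4 control libraries, so the Ndc80 values in them are not independent of each other.

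**Figure D3:**
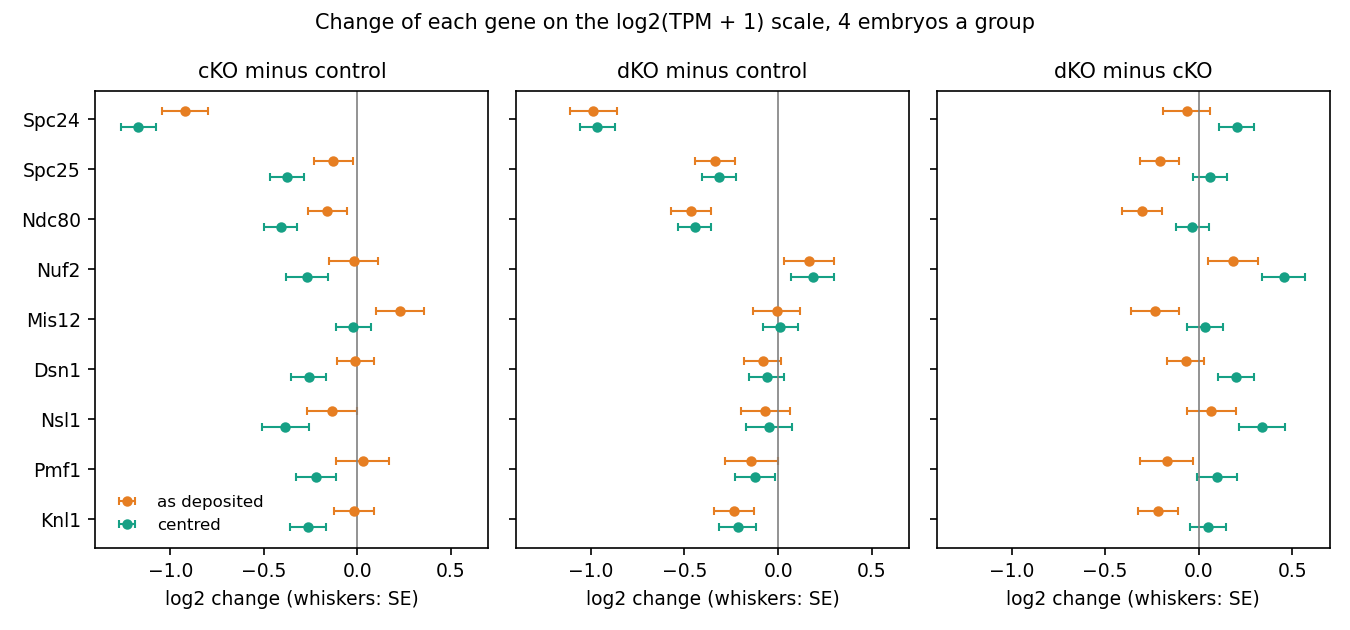
Log2 change of each gene on the log2(TPM + 1) scale with its SE, as deposited (orange) and after median-shift centring (green), for cKO minus control, dKO minus control and dKO minus cKO (4 embryos a group). Centring lowers the cKO values and raises the dKO minus cKO values, turns Spc24 and Spc25 from below to above 0 in dKO minus cKO, and leaves Ndc80 below 0 in dKO minus control under both.

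TPM ratios between genes of 1 library do not depend on its scaling. Differences of log2(TPM + 1) keep some dependence through the added 1, most for low genes. Spc24 made up 15.8%, 13.8%, 17.6% and 17.3% of the summed TPM of the 4 NDC80 genes in the controls, 9.04%, 9.22%, 9.05% and 9.83% in cKO, and 8.32%, 10.6%, 9.73% and 9.15% in dKO. Every mutant library lay below every control, and the cKO shares were the tightest, at 9.29% ± 0.374 (SD, n = 4). Relative to the mean log2(TPM + 1) of Spc25, Ndc80 and Nuf2, Spc24 was at -0.70 ± 0.183 in the controls, against -1.52 ± 0.036 for cKO and -1.48 ± 0.148 for dKO (SD, n = 4 each). The difference from control was -0.82 in cKO and -0.77 in dKO, or -1.15 in dKO with the partners' median in place of their mean. Spc24 chose the set, so these ratios describe it and are not tested.

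The ratios among the 3 partners were looked at after their values were seen, and carry no test either. Spc25 to Ndc80 was 1.99 ± 0.038 in control, close to it in cKO at 2.05 ± 0.052, and 2.21 ± 0.093 in dKO. For Ndc80 to Nuf2 the controls were at 0.719, 0.724, 0.965 and 0.741, the cKO embryos at 0.654, 0.675, 0.826 and 0.678, and the dKO embryos at 0.450, 0.506, 0.506 and 0.510. The 4 dKO embryos thus lay below the 8 others in the ratio of these dimer partners, while control and cKO overlapped. Spc25 to Nuf2 showed the same arrangement, between 1.02 and 1.16 in dKO and at least 1.34 in the 8 other libraries.

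**Figure D4:**
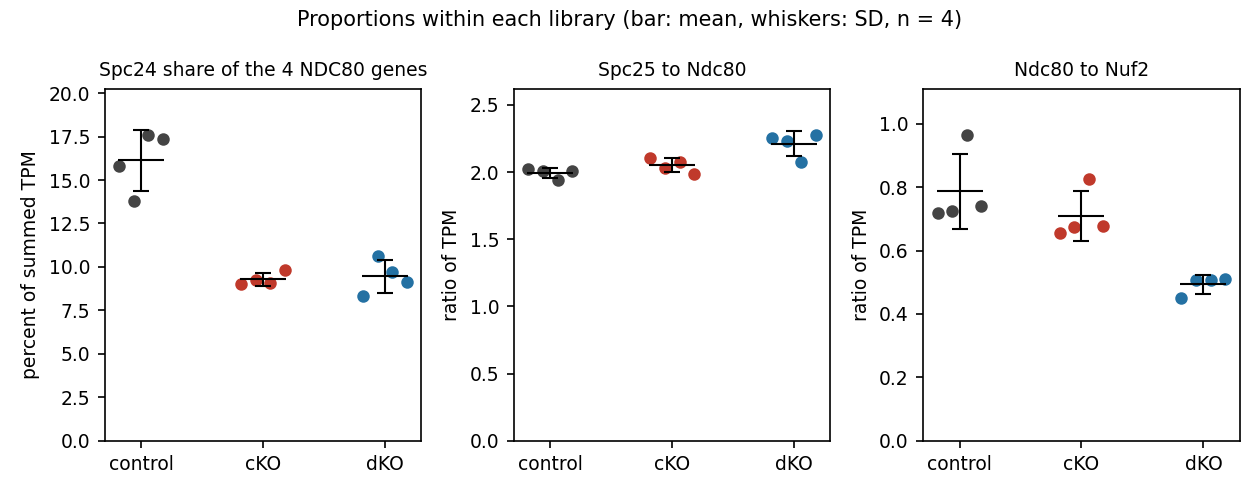
Spc24 as a percentage of the summed TPM of Spc24, Spc25, Ndc80 and Nuf2 (left), the Spc25 to Ndc80 TPM ratio (middle) and the Ndc80 to Nuf2 TPM ratio (right), 1 point per embryo with mean and SD (n = 4). Both mutants lie below control in the Spc24 share, and the dKO embryos alone lie low in Ndc80 to Nuf2, at 0.450 to 0.510.

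The MIS12 complex, which docks the NDC80 complex onto the inner kinetochore, had no called subunit in any comparison with all libraries in, under the 3 scalings. Mis12 measured 4.41, 3.73, 4.41 and 3.88 TPM in the controls, 3.57, 5.05, 4.96 and 6.69 among cKO and 4.30, 4.07, 4.11 and 3.82 among dKO. Control and cKO overlapped, with cKO embryo 4 the highest and embryo 1 the lowest. Its cKO change was 0.23 (SE 0.127, limma adjusted p = 0.168) as deposited and -0.02 (SE 0.095, adjusted p = 0.923) after centring, and without cKO embryo 4 it was 0.10 and -0.10. Without cKO embryo 1, Mis12 as deposited was called higher in cKO than in control (0.35, adjusted p = 0.0213) and lower in dKO than in cKO (-0.36, adjusted p = 0.0171). Mis12 overlaps Derl2 on the opposite strand over 231 bases, and how the authors' counting used strand is not given, so reads of the 2 genes may be mixed.

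Dsn1, the subunit that Aurora B phosphorylates to control assembly, measured 10.9, 9.91, 10.4 and 9.36 TPM in the controls, 9.29, 8.90, 10.3 and 11.8 for cKO and 10.4, 8.31, 9.11 and 10.3 for dKO, and all groups overlapped. Its changes were -0.01 in cKO and -0.08 in dKO as deposited, and -0.26 (SE 0.094, adjusted p = 0.130) and -0.06 after centring. Pmf1, which pairs with Mis12 in the complex, ran from 11.3 to 17.0 TPM among controls, 12.5 to 19.5 among cKO and 11.98 to 14.2 among dKO embryos; its cKO change was 0.03 (SE 0.141, adjusted p = 0.881) as deposited and turned to -0.22 (SE 0.106, adjusted p = 0.253) after centring. Nsl1, the partner of Dsn1, was the least abundant of the 9 genes, at 1.19 to 2.24 TPM across the controls, 1.20 to 1.54 across cKO and 1.01 to 1.71 across dKO. Its centred change of -0.38 in cKO (SE 0.123, adjusted p = 0.090) was as large as that of Spc25 but was not called. After protein-coding rescaling it was smaller, at -0.27 (limma adjusted p = 0.209) against -0.36 for Spc25. At this level the log2(TPM + 1) scale understates a change. Without dKO embryo 2, which enters through the shared fit, the centred cKO change of Nsl1 passed at adjusted p = 0.0429. Its centred dKO minus cKO change passed too (0.44, adjusted p = 0.0417).

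Knl1, the scaffold for Bub1 and other checkpoint proteins, measured 6.38, 6.65, 6.90 and 7.01 TPM in the controls, 5.28, 6.82, 7.35 and 7.32 in the cKO embryos and 4.51, 6.06, 5.94 and 5.88 in the dKO embryos. All 4 dKO embryos lay below all controls as deposited, and cKO overlapped both. The dKO change was -0.24 (SE 0.107, adjusted p = 0.239) as deposited and -0.22 (SE 0.097, adjusted p = 0.192) after centring, and was not called. Against cKO, dKO Knl1 was called lower only as deposited and without cKO embryo 1 (-0.31, adjusted p = 0.0227). As deposited, Knl1, Spc25 and Ndc80, 3 of 8 genes, were lower in dKO than in control without overlap, against 8.44% of all genes tested; after centring it was 2 of 8 (Spc25 and Ndc80), against 7.28%. In cKO no gene of the 8 was lower without overlap as deposited (0.91% of all genes), and 4 of 8 (Spc25, Ndc80, Dsn1 and Nsl1) were after centring (7.81%). Between the mutants, 1 of 8 (Ndc80) was lower in dKO without overlap as deposited, against 32.8% of all genes, and 1 of 8 (Nuf2) was higher after centring, against 7.32%.

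The order of levels, which TPM allows because it is per length, changed at Spc24. Within the NDC80 complex the order was Spc25, Nuf2, Ndc80, Spc24 in each of the 12 libraries. Spc24 came 4th or 5th among the 9 genes in the controls, next to Ndc80 and Pmf1, whose ranges it overlapped. In cKO it came 6th or 7th, between Dsn1 and Knl1 and overlapping both, and in dKO it came 6th in all 4 libraries and overlapped neither. Nuf2 stood clear of Ndc80 in control and dKO, overlapped it in cKO, and reached the range of Spc25 in dKO. Mis12 and Nsl1 were 8th and 9th in every library.

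Kinetochore genes are used by dividing cells, and the level of a list of 14 cycling-cell genes moved too. Its mean log2(TPM + 1) was 5.23 ± 0.099 in the controls, with cKO at 5.15 ± 0.210 and dKO at 4.90 ± 0.093 (SD, n = 4 each), and its summed TPM ran from 694 to 810, from 587 to 826 and from 514 to 626. As deposited, 2 of the 14 were called lower in cKO and 4 in dKO (1.09% and 3.4% of all genes were), with medians of -0.08 and -0.36. After centring, 6 and 5 were (2.96% and 4.69% of all genes), with medians of -0.33 and -0.34. Mki67, a marker of cycling cells, was at 44.4 ± 2.08, 44.3 ± 6.85 and 35.4 ± 7.33 TPM and Top2a, the topoisomerase of dividing cells, at 159 ± 14.9, 145 ± 26.4 and 123 ± 15.7 TPM in control, cKO and dKO (SD, n = 4), and neither was called in any comparison under either scaling. Its part in the changes of Spc25 and Ndc80 was not tested.

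Positions were also taken against the cycling-cell list within each library. Spc24 was chosen for its low TPM in both mutants, so its lower position there restates that choice. The partners differed among themselves. Relative to the list, Spc24 was at -1.24 ± 0.116 in the controls, with cKO at -2.08 ± 0.042 and dKO at -1.90 ± 0.150 (log2, SD, n = 4 each), without overlap between control and either mutant. Spc25 was at -0.01, -0.06 and -0.02 and Ndc80 at -0.97, -1.05 and -1.10, and for both genes all groups overlapped in position against the list. Nuf2 stood higher against it in dKO, going from -0.63 ± 0.195 in control and -0.57 ± 0.116 in cKO to -0.14 ± 0.130, and the dKO embryos overlapped neither group. In dKO, Dsn1 also stood higher without overlap with control (-1.51 ± 0.072 against -1.76 ± 0.101), and Nsl1 was 0.26 higher with overlap. Pmf1 and Knl1 overlapped control in both mutants. Mis12 stood higher in both mutants, at -2.88 ± 0.051 in control against -2.57 ± 0.166 in cKO and -2.56 ± 0.111 in dKO, also without overlap with control. These positions are a description with no test, and through the added 1 they keep some dependence on scaling, most for low genes.

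Markers of other cells moved between the groups as well. The summed TPM of 8 microglia genes was 12.5 to 15.5 in the controls, 48.9 to 71.1 for cKO and 14.7 to 20.6 for dKO, and 7 of the 8 were called higher in cKO both as deposited, beside 34.3% of all genes, and after centring, beside 3.72%. The sum of 10 cortical neuron genes was 267 to 288 in the controls, 343 to 416 for cKO and 180 to 273 for dKO. In cKO, 5 were called higher as deposited and 0 after centring, beside 34.3% and 3.72% of all genes, and 0 lower in either. In dKO, 2 were called lower and 0 higher under both scalings, beside 3.4% and 4.69% called lower. The 10 radial glia genes, which mark the labelled tissue, summed to 279 to 325, 323 to 389 and 303 to 310. In cKO, 2 of these were called higher and 1 lower as deposited, with a median change of -0.01. After centring 0 were called higher and 2 lower, with a median of -0.26 (1.09% and 2.96% of all genes were called lower). The 6 genes of vessels and pericytes summed to 9.27 to 11.97 in the controls, 18.2 to 23.9 for cKO and 11.6 to 18.7 for dKO. Of the 5 of them that passed the filter, 5 were called higher in cKO as deposited and 3 after centring, beside 34.3% and 3.72% of all genes. In dKO 0 and 1 were called higher, beside 1.79% and 3.74% of all genes, and 0 were called lower in either mutant. The 6 genes of meninges and connective tissue summed to 23.0 to 39.9, 41.6 to 49.9 and 36.3 to 53.1 in the same order, and all 4 cKO and 2 of the 4 dKO embryos lay above every control. Of the 4 of them that passed the filter, 3 were called higher in cKO and 1 in dKO as deposited, and 1 and 2 after centring (for dKO, beside 1.79% and 3.74% of all genes). Of 8 genes of ventral telencephalon and interneurons, 7 averaged under 1 TPM. The part of these cells in the kinetochore values was not tested.

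Across the 12 libraries, the genes whose centred profile was most like that of Spc24 were Ciao2b (Pearson r = 0.985), Rcl1 (0.953), Tyms (0.952), Sptssa (0.951) and Lage3 (0.95), out of 9801 protein-coding genes ranked. Ciao2b averaged 14.0 TPM in the controls, 7.93 in cKO and 7.10 in dKO embryos, and Lage3 averaged 17.9, 8.50 and 6.73. The other genes fell less in proportion. In the same order, Rcl1 averaged 2.5, 2.01 and 1.66, Tyms 45.6, 37.5 and 30.6, and Sptssa 20.5, 14.7 and 12.4. Tyms is also on the cycling-cell list. The Spearman coefficients were 0.937 for Ciao2b, 0.874 for Rcl1, 0.72 for Tyms and Lage3 and 0.692 for Sptssa. Of the partners, Ndc80 ranked 31st (r = 0.902) and Spc25 54th (r = 0.874), whereas Nuf2 (r = 0.224) and Mis12 (r = 0.124) ranked 2905th and 3652nd. The 12 points fall into the control and mutant libraries, so these coefficients mostly restate that split and are given as a description. Within groups, as deviations from the group mean over the same 12 libraries, Spc25 and Ndc80 were the closest of the 36 pairs of kinetochore genes (r = 0.94), the median pair had r = 0.23, and Nuf2 with Knl1 had the lowest value (r = -0.54).

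Beyond the 9 genes, 48 other kinetochore genes in 5 lists were all tested. They were 11 outer kinetochore genes (Zwint, the SKA and RZZ complexes and motors), 16 of the inner kinetochore network CCAN, 6 of the centromeric histone CENP-A and its loading, 8 of the spindle checkpoint, and 7 of the passenger complex and shugoshins. As deposited, limma called 5 higher and 0 lower in cKO, where 34.3% of all genes were called higher: Cenpw, Cenpt, Hjurp, Mad1l1 and Mad2l1bp. Of these only Cenpw, a histone-fold subunit of the CCAN, kept a call after centring (1 higher, beside 3.72% of all genes), while 7 others were then called lower, where 2.96% of all genes were, among them Spdl1, Ska1, Cenpl, Itgb3bp, Cenpi and Mad2l1. The median change of the 48 was 0.05 as deposited and -0.20 after centring, beside 0.25 and 0.00 over all genes tested.

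Cenpw rose in both mutants, opposite to Spc24. Its mean went from 9.93 TPM in the controls to 16.1 with Rnu11 lost alone and 14.2 with Trp53 lost as well, and the mutant embryos did not overlap the controls. The change in cKO was 0.65 (SE 0.106, limma adjusted p = 0.0017) as deposited and 0.40 (SE 0.104, adjusted p = 0.0414) after centring, and in dKO it was 0.48 (SE 0.106, adjusted p = 0.0218) and 0.50 (SE 0.104, adjusted p = 0.0138). The centred cKO call was lost in 8 of 12 fits with 1 library left out (control embryos 1, 2 and 4, cKO embryos 1, 3 and 4 and dKO embryos 3 and 4; adjusted p 0.0536 to 0.125), and the deposited dKO call without control embryos 1 or 2 (adjusted p 0.0591 and 0.0657).

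In dKO, 1 of the 48 genes was called higher than control (Cenpw) and 1 lower (Cenpi) as deposited, beside 1.79% and 3.4% of all genes. Cenpi, a CCAN subunit needed to load CENP-A, averaged 2.74 TPM in the controls, 2.54 among cKO and 1.90 among dKO embryos, with a dKO change of -0.37 (SE 0.089, limma adjusted p = 0.0337) as deposited and -0.35 (SE 0.081, adjusted p = 0.0237) after centring. The deposited call was lost without any 1 control embryo or dKO embryos 1, 2 or 3 (adjusted p 0.0527 to 0.0902), and the centred call without control embryos 2 or 3 or dKO embryos 2 or 3 (0.0513 to 0.065). After centring, 1 was called higher (3.74% of all genes were) and 4 lower (4.69%): Cenpi, Cenph, Cenpa, the centromeric histone, and Aurkb, the kinase that corrects faulty attachments. The median of the 48 was -0.13 as deposited and -0.11 after centring, with 42 and 37 of them below 0.

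Between the mutants, 11 of the 48 were called lower in dKO as deposited and 0 higher, beside the 38.8% of all genes called lower. By size, the first were Aurkb (-0.47, limma adjusted p = 0.0175), Cenpa (-0.42, adjusted p = 0.0228), Cenpt (-0.40, adjusted p = 0.0117), Cenpb (-0.38, adjusted p = 0.0274) and Cenph (-0.38, adjusted p = 0.0221), and the other 6 were Ska2, Cenpo, Cenpi, Cenpc1, Hjurp and Bub1b. After centring none of the 11 was called, where 3.83% of all genes were called lower, and the only call was Cenpl, which was higher in dKO (0.31, SE 0.068, adjusted p = 0.0236). As deposited, Cenpl averaged 2.51 TPM in cKO and 2.61 in dKO, and the embryos overlapped. After protein-coding rescaling none of the 48 was called, Cenpl included. Of the 5 genes given first, Cenpt kept its deposited call in all 12 fits with 1 library left out (highest adjusted p = 0.0397). The other 4 lost theirs without cKO embryo 4: Aurkb (-0.36, adjusted p = 0.0513), Cenpa (-0.32, adjusted p = 0.0668), Cenpb (-0.27, adjusted p = 0.0723) and Cenph (-0.28, adjusted p = 0.0564). Those of Cenpa, Cenpb and Cenph were also lost without cKO embryo 2 or dKO embryo 3, and those of Cenpa and Cenpb without dKO embryo 4 (adjusted p 0.051 to 0.0697).

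**Figure D5:**
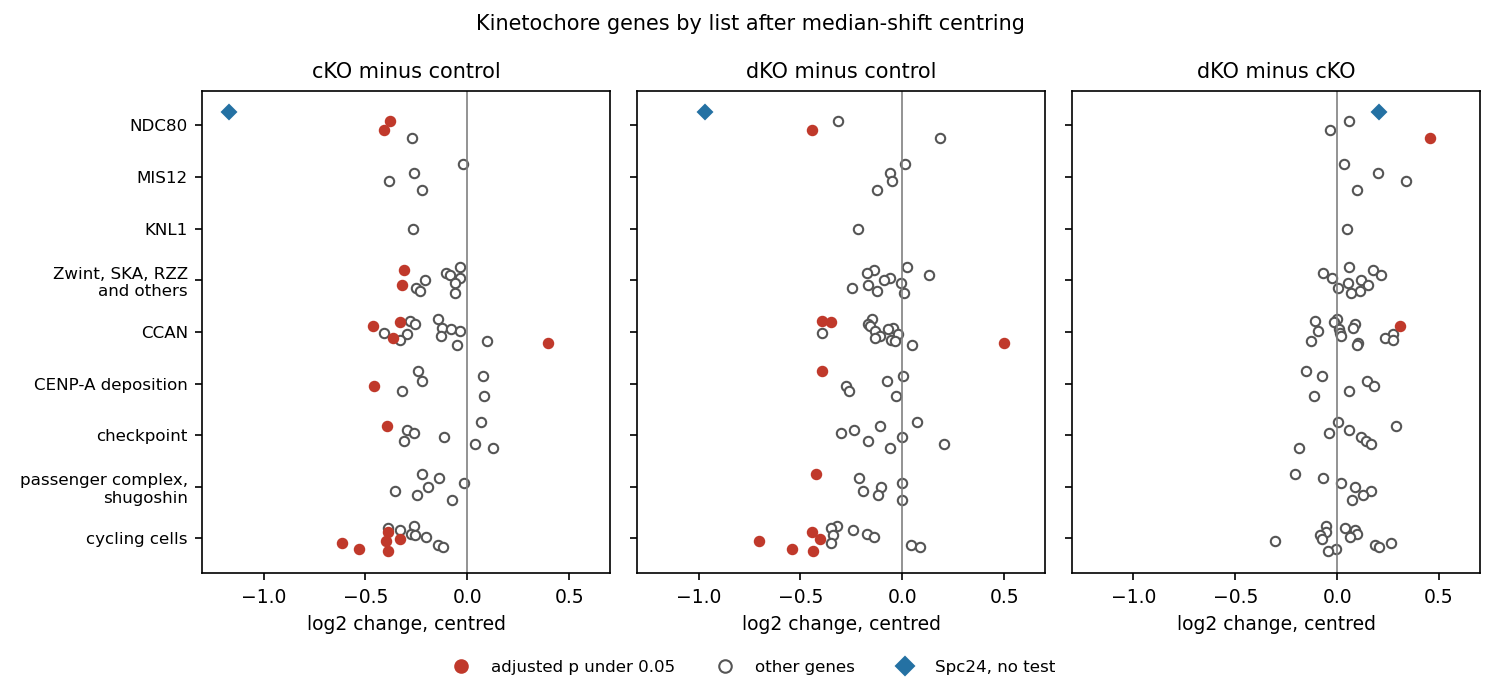
Centred log2 change of the 9 kinetochore genes, the 48 other kinetochore genes and the 14 cycling-cell genes (rows: lists; x axis: log2 change), with filled points for limma adjusted p under 0.05 over all genes and a diamond for Spc24, which was not tested. Spc24 lies lowest in both comparisons with control, at -1.17 and -0.97, Cenpw is the filled point to the right in each, and Nuf2 and Cenpl are the filled points in dKO minus cKO; as deposited, the cKO minus control values lie further to the right and the dKO minus cKO values further to the left.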

How the data were processed

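Each embryo has a deposited table of TPM by gene symbol; that the unit is TPM was read from the values, which are fractional and reach the same sum in each table. Per the submitters' processing notes the authors used HISAT2 and mm10; the quantifier, annotation and use of strand are not given in the sources used here. Libraries were stranded total RNA sequenced on a NextSeq500, per the labels. Short structural RNAs fill much of such libraries and shift all other TPM.

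Groups came from the genotype labels. Genes averaging at least 1 TPM (11764) were fitted as log2(TPM + 1) with limma 3.58.1 (R 4.3.3, eBayes with trend, 3 groups in 1 fit, no block), with Benjamini-Hochberg adjustment over all of them and calls at adjusted p under 0.05. Changes on this scale are understated for low genes. All 9 kinetochore genes passed the filter. The fit was tested on simulated data. The limma p-values set each difference between groups against the spread between embryos within groups. Replicate numbers repeat across groups, but same-numbered embryos did not deviate together (r from -0.095 to 0.075 over 12 pairs), so they were not treated as pairs.

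Alternatives were median-shift centring, rescaling to 20923 RefSeq protein-coding genes, quantile normalization, other pseudocounts and filters, fits of 2 groups, a replicate block and leaving out each library. Centring together with the block or with a library left out was added after seeing the data. Named genes are the 9, Rnu11, Trp53, Mki67, Top2a, up to 5 called increases and decreases per comparison among the 48 other kinetochore genes, and the 5 protein-coding genes most correlated with Spc24; the other kinetochore genes listed by name were chosen after their calls were seen. The genes and lists were chosen with earlier results of these data known. Introns were read from GENCODE M21 transcripts (GRCm38, the same assembly as mm10) that retain them. Python 3.11.15, pandas 2.3.3, scipy 1.17.1 and matplotlib 3.10.9 were used.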

Additional observations from a re-analysis of the deposited data

Results flagged for a closer look

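Knl1 in dKO embryo 1, at 4.51 TPM against 5.88 to 6.06 in the other dKO embryos, lay far from the rest of its group. The gap to the nearest embryo was 0.882 of the group's whole range, above Dixon's 95% critical value for 4 samples. Among the 27 groups of 4 examined this way (9 genes in 3 genotypes), chance alone flags about 1 in 20, or 1.35, and 1 was flagged.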

How the results depend on the processing

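Counts of calls moved with the scaling. The 8 genes other than Spc24 gave 0, 1 and 1 calls as deposited in cKO minus control, dKO minus control and dKO minus cKO. With median-shift centring they gave 2, 1 and 1, with protein-coding rescaling or quantile normalization 2, 2 and 1, and with no low-value filter 0 in each; fits of 2 groups gave 0, 1 and 0. The 48 other kinetochore genes gave 5, 2 and 11 as deposited, 8, 5 and 1 centred, 6, 8 and 0 rescaled, 10, 6 and 2 with quantile normalization, 1, 1 and 7 with no filter, 4, 1 and 10 with a minimum mean of 5 TPM, and 2, 3 and 8 in fits of 2 groups. All genes tested gave 4163, 610 and 4636 as deposited, 786, 992 and 698 centred, 865, 1071 and 1012 rescaled, 810, 1029 and 798 with quantile normalization, and 1900, 294 and 2220 of the 5803 genes left by the 5 TPM minimum. The fall in the last set comes with fewer genes tested; the cause of the other changes was not tested.

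With the replicate number as a block, the 8 genes gave 0 calls in each comparison, the 48 gave 1, 1 and 7, and with centring as well the counts were 0, 1 and 0 for the 8, 2, 2 and 0 for the 48 and 502, 598 and 415 for all genes. With the block, the Ndc80 fall in dKO had adjusted p = 0.0626 as deposited and 0.0354 centred. Same-numbered embryos did not deviate together, so this block takes out no known pairing. Leaving out 1 library at a time, over both scalings, gave 0 to 3, 0 to 2 and 0 to 3 calls among the 8 genes, 1 to 12, 0 to 7 and 0 to 15 among the 48, and 461 to 4353, 333 to 1035 and 253 to 4851 among all genes.

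Spc24 kept its direction against control in every alternative run. Its dKO minus cKO change turned from -0.06 to 0.204 centred, with or without the block, 0.149 rescaled and 0.219 with quantile normalization, and ran from -0.129 to 0.272 over single libraries left out. In the same comparison and order, Spc25 turned to 0.0601, 0.026 and 0.0212, Dsn1 to 0.20, 0.151 and 0.211, and Pmf1 to 0.0981, 0.0558 and 0.103. Mis12 turned to 0.0349 centred and 0.0578 with quantile normalization, and Knl1 to 0.0494 and 0.0677. Leaving out single libraries gave -0.26 to 0.12 for Spc25, -0.366 to 0.013 for Ndc80, -0.362 to 0.108 for Mis12, -0.12 to 0.272 for Dsn1, -0.247 to 0.175 for Pmf1 and -0.314 to 0.125 for Knl1.

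In cKO minus control, Mis12 turned to -0.0223 centred and -0.0512 with quantile normalization, and Pmf1 to -0.221 centred, -0.196 rescaled and -0.217 with quantile normalization. Single libraries left out gave -0.338 to 0.0887 for Nuf2, -0.0958 to 0.355 for Mis12, -0.304 to 0.0392 for Dsn1, -0.304 to 0.104 for Pmf1, -0.337 to 0.0776 for Knl1 and -0.0023 to 0.343 for Mad2l1bp. In dKO minus control, Mis12 turned to 0.0125 centred and 0.0065 with quantile normalization, and ranged from -0.0434 to 0.0388, Dsn1 from -0.121 to 0.0086 and Nsl1 from -0.141 to 0.0565.

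With the partners' median in place of their mean, Spc24 against its NDC80 partners went from -0.77 to -1.15 in dKO minus control and turned from 0.04 to -0.25 in dKO minus cKO. The mean-based dKO minus cKO value ran from -0.0138 to 0.103 over libraries left out. Against the cycling-cell list's median, the dKO minus cKO differences of Spc25, Mis12 and Knl1 were -0.0096, -0.0349 and -0.0203, and with a pseudocount of 0.1 that of Mis12 was -0.0182. Leaving out libraries moved the position against that list from -0.0219 to 0.136 for Nuf2, -0.104 to 0.0541 for Nsl1 and -0.0285 to 0.121 for Knl1 in cKO minus control, from -0.0447 to 0.0552 for Spc25 in dKO minus control, and from -0.0654 to 0.0628 for Mis12 and -0.0542 to 0.127 for Knl1 in dKO minus cKO. TPM keeps no depth, so the counting error of low genes such as Nsl1 is unknown.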
